A study of Mus musculus with 4 samples.

Results

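The transcripts of 10 genes that silence retroelements were followed in mouse embryonic stem (ES) cells: Fam208a, Fam208b, Mphosph8, Pphln1, Smchd1, Hells, Smarcad1, Chaf1a, Chaf1b and Rif1. They were taken by symbol from the 24054 genes counted, with no filter on their values but with earlier results of these data known. All 10 passed the filter on low counts, as did 13267 genes in all. RNA came from 1 wild-type culture (line wt26) and from 3 Morc3 rescue single clones, T131-3C, T131-3D and T131-3M (3C, 3D and 3M from here on), all grown without feeder cells on gelatin in medium with serum and LIF. The clones were raised from 1 Morc3 ko single clone of wt26, into which a Morc3 construct had been brought by PiggyBac transfection under puromycin selection, so they carry the knockout alleles, the construct and the history of that clone. Morc3 is a nuclear ATPase that silences endogenous retroviruses. The comparison asks how far the rescue clones resemble wild type, and ko cells were not analysed here.

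HUSH (human silencing hub) is a complex of Fam208a (Tasor), its scaffold, Mphosph8 (MPP8), whose chromodomain reads trimethylated lysine 9 of histone H3, and Pphln1 (periphilin). It works with the methyltransferase Setdb1 and the ATPase Morc2a to keep young retroelements and other intronless insertions silent, and Fam208b (Tasor2) is a paralog of its scaffold. The other members act on the same elements by other routes: Smchd1 is a noncanonical SMC protein of the inactive X chromosome and imprinted clusters, Hells and Smarcad1 are SNF2-family nucleosome remodellers, Chaf1a and Chaf1b are subunits of the histone chaperone CAF-1, and Rif1 sets replication timing.

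Fam208a and Mphosph8 on chromosome 14 and Fam208b on chromosome 13 read higher in all 3 clones than in wild type, by 1.33-fold, 1.22-fold and 1.52-fold. Fitted differences of the other 7 genes lay between -0.10 and 0.07 on the log2 scale. The median gene of chromosome 14 also stood above wild type in every clone, and that of chromosome 13 in clones 3C and 3M, and no member was called at an adjusted p of 0.01 (edgeR quasi-likelihood test, Benjamini-Hochberg adjustment). The sequences before the start sites of these 3 genes, and of Hells for contrast, were taken from RefSeq (GRCm38.p6, 250 bases before the start, read 5′ to 3′ on the strand of the gene). They lie at chr14:27428584-27428833 (Fam208a, + strand), chr14:56667998-56668247 (Mphosph8, + strand), chr13:3611109-3611358 (Fam208b, - strand) and chr19:38930740-38930989 (Hells, + strand). Capitals mark the CCAAT box on either strand (CCAAT or ATTGG) and, in Hells, a word of the kind that E2F factors bind. The RefSeq start used for Hells lies 75 bases inside the span that GENCODE gives the gene, so its capitals stand before the RefSeq start and after the GENCODE start.
Fam208a: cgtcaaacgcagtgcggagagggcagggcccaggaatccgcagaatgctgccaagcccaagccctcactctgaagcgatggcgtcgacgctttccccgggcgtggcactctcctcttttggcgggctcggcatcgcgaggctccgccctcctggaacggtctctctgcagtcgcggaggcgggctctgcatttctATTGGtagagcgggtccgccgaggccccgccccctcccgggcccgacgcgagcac
Mphosph8: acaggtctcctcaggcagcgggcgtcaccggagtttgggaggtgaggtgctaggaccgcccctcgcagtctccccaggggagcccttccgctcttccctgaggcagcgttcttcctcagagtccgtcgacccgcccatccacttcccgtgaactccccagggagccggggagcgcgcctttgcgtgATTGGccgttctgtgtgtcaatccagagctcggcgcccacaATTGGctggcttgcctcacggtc
Fam208b: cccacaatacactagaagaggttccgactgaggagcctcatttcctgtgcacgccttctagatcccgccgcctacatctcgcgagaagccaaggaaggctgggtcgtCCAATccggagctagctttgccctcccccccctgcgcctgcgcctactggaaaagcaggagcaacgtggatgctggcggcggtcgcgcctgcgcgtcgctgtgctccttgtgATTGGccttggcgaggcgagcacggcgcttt
Hells: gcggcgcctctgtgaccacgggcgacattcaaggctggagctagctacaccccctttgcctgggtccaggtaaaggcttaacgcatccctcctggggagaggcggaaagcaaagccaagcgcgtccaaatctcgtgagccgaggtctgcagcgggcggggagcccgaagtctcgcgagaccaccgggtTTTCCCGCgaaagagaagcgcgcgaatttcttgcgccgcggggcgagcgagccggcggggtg

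The windows searched ran from 250 bases before to 50 bases after the start, on both strands, and 9 of the 10 members had at least 1 window. A CCAAT box stood in windows of 5 members (Fam208a, Fam208b, Mphosph8, Smarcad1 and Chaf1a) and in 37.4% of all 32851 windows. The GC box GGGCGG stood in windows of 6 members and in 35.7% of all windows, and the ETS core CCGGAA in windows of 4 members and in 14.9%. Members were counted over any of their windows, with 2 each for Pphln1 and Smarcad1, while the shares are per window. The GC content was 47.3% in 1 Smarcad1 window and 61% to 76.7% in the other member windows, against a median of 52.7% over all windows. The counts were not corrected for this. An E2F word (TTTCCCGC, TTTCGCGC, TTTGCCGC or TTTGGCGC) was found in the window of Hells alone among the members and in 2.26% of all windows. Near forms that differ in the last base were not searched. The printed run of Fam208a holds TTTGGCGG, and the window of Chaf1a holds it on the opposite strand. Hells therefore stands alone only for the exact words searched. None of the words searched overlapped another in the printed runs, and no member window held TATAAA, which 13.6% of all windows did. The CCAAT box was present in the 3 HUSH-family genes printed here but in no window of Pphln1, a HUSH subunit not printed.

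The 4 libraries held 18789457 counts on genes in wild type and 13620914 to 15479190 in the clones, and 14.5% of the read pairs were unmapped in wild type against 21.0% to 23.0% in the clones. Morc3 itself, the gene brought back, read 160.7 CPM (counts scaled to a common library size, with TMM factors) in wild type and 655.0, 496.5 and 609.1 CPM in clones 3C, 3D and 3M. Its fitted log2 difference was 1.87 (SE 0.17), yet like the members it was not called in the main fit. A missing call therefore does not show that a gene is unchanged. All 10 ES cell markers were over 1 CPM in each library, with sums from 4997 to 5718 CPM. Of 6 fibroblast markers only Thy1 was over 1 CPM in every library, and Col3a1 and Lum were at 0 throughout. The sums of the fibroblast markers ran from 20.4 to 45.0 CPM, and those of primitive endoderm markers from 6.67 to 11.0 CPM. Trophoblast markers summed to 54.5 to 85.1 CPM, and neural and mesoderm markers to 5.68 to 7.49 CPM. In that order, 1, 2, 2 and 2 of 6 genes were over 1 CPM in every library. Tfap2c held most of the trophoblast sum, with 56.2 CPM in wild type and 51.9, 61.4 and 79.5 CPM in clones 3C, 3D and 3M. With 1 wild-type library, the fit takes its spread from the clones, which are separate cultures of 1 parental clone, and fewer cells of a kind cannot be told apart from less RNA per cell.

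**Figure D1:**
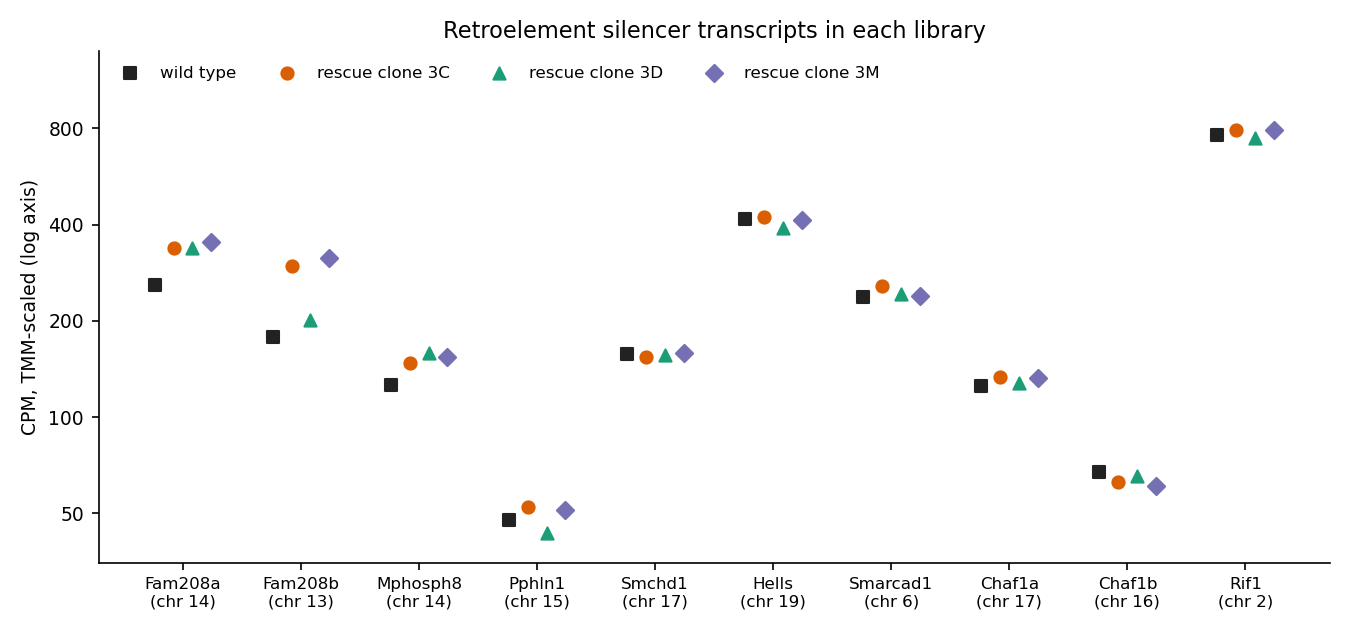
TMM-scaled CPM (log axis) of the 10 genes in wild type (squares) and rescue clones 3C, 3D and 3M (circles, triangles, diamonds), 1 library each. The clones lie above wild type for Fam208a, Fam208b and Mphosph8, and close around it for most of the others.

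Fam208a, the scaffold gene of HUSH (chr14:27428834-27483555), read 258.8 CPM in wild type and 338.5, 337.7 and 352.5 CPM in clones 3C, 3D and 3M. The clones lay close together, and all were above wild type. The fitted difference was 0.41 on the log2 scale (SE 0.065, 95% interval 0.25 to 0.57), with an unadjusted p of 0.000947 and an adjusted p of 0.189 (edgeR quasi-likelihood test, 3 clones against 1 library). DESeq2 gave an adjusted p of 0.0357. Without clone 3D, edgeR gave 0.42 and called the gene, in a fit that called many more genes over the whole set. Behind these values stand 4563 to 5461 counts per library.

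Mphosph8, the chromodomain subunit (chr14:56668248-56697430), read 125.6 CPM in wild type and 147.4, 158.8 and 154.3 CPM in the clones, in the same order. Every clone was above wild type, by less than for Fam208a. It differed by 0.29 in the fit (SE 0.077, 95% interval 0.10 to 0.48, unadjusted p = 0.0105, adjusted p = 0.322, edgeR quasi-likelihood test). Counts on the opposite strand came to 1.71% to 2.34% of those on the gene's strand, and to 1.04% to 1.50% for Fam208a and Fam208b.

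Pphln1, which codes for periphilin (chr15:93398350-93491510), had the fewest counts of the members, with 47.6 CPM in wild type and 52.1, 43.2 and 51.3 CPM in the clones. Clone 3D lay below wild type and the others above it. The fitted difference was 0.04 (SE 0.13), and its interval, -0.29 to 0.37, still held differences as large as that of Mphosph8. A difference between Pphln1 and the other subunits was not tested.

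Fam208b, the scaffold paralog (chr13:3566035-3611108), read 178.5 CPM in wild type, 296.5 CPM in clone 3C, 201.7 CPM in clone 3D and 315.6 CPM in clone 3M. Clones 3C and 3M stood well above wild type, while clone 3D lay nearer to wild type than to the other clones. In log2 CPM the clones exceeded wild type by 0.73, 0.18 and 0.82. The fitted difference was 0.60 (SE 0.25, 95% interval -0.02 to 1.23), with an unadjusted p of 0.0553 and an adjusted p of 0.493 (edgeR quasi-likelihood test). Its coefficient of variation among clones, 22.5%, was the highest of the members, whose median was 3.72% against 9.03% over all genes tested. Of all genes tested, 19.4% varied as much or more. Without clone 3D, the difference was 0.78 and Fam208b was called, so this library decides the call. Many more genes over the whole set were called without that clone, so the call is not particular to Fam208b.

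The chromosomes of these genes were shifted in the clones, as the plot of members and chromosomes shows. On chromosome 14, the median difference over 465 genes tested was 0.34 in clones 3C and 3D and 0.35 in clone 3M, and 78.5% of these genes were above wild type in every clone. On chromosome 13, over 512 genes, the medians were 0.48 in clones 3C and 3M but 0.03 in clone 3D. The medians of the remaining chromosomes lay between -0.05 and 0.02 in the fit. Clone 3D, low for Fam208b, was the clone in which chromosome 13 did not stand apart.

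**Figure D2:**
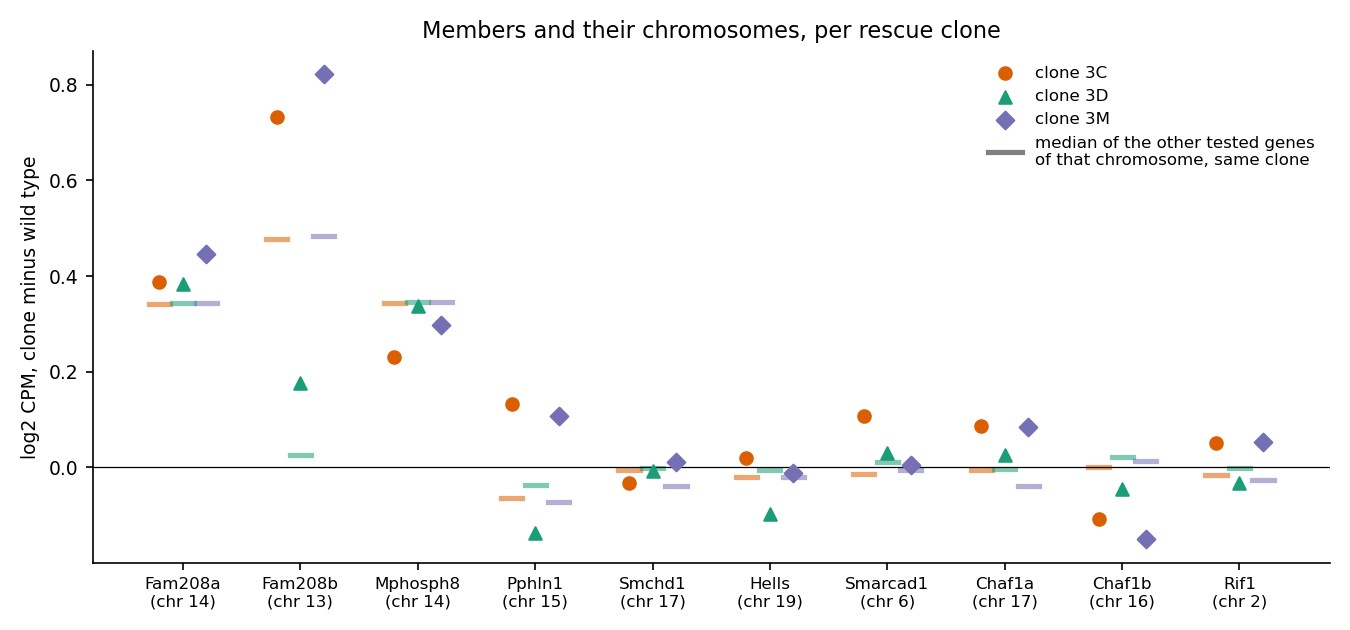
Difference in log2 CPM between each rescue clone and wild type for the 10 genes (circles 3C, triangles 3D, diamonds 3M), with a bar at the median of the other genes tested on the same chromosome in that clone. Fam208a and Mphosph8 lie near the chromosome 14 bars, Fam208b lies above the chromosome 13 bar in each clone, and the other bars lie near 0.

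Set against its chromosome in the same fit, Fam208a stood 0.05 above the median and Mphosph8 0.07 below it (-0.07), both within the quartiles of chromosome 14, 0.22 and 0.50. They ranked 184 and 290 of 465 genes from the highest. Fam208b stood 0.26 above the median of chromosome 13, above its upper quartile of 0.49, and ranked 73 of 512. The excess over the chromosome was 0.26, 0.15 and 0.34 in clones 3C, 3D and 3M, so Fam208b kept its sign in every clone. The part of the chromosome shift in these differences was not tested.

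Near neighbours read much as the chromosomes did. Within 2 Mb of Fam208a, the median of 18 other genes was 0.38 in clone 3C, 0.36 in 3D and 0.35 in 3M, with 14 genes above wild type in every clone. The 64 genes near Mphosph8 had medians of 0.31, 0.30 and 0.28, with 50 above in every clone. Only 7 tested genes lay near Fam208b, close to the end of chromosome 13, with medians of 0.55, 0.09 and 0.54 and 5 above in every clone. The median of the neighbours of Fam208b was lowest in clone 3D, as was the gene itself.

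**Figure D3:**
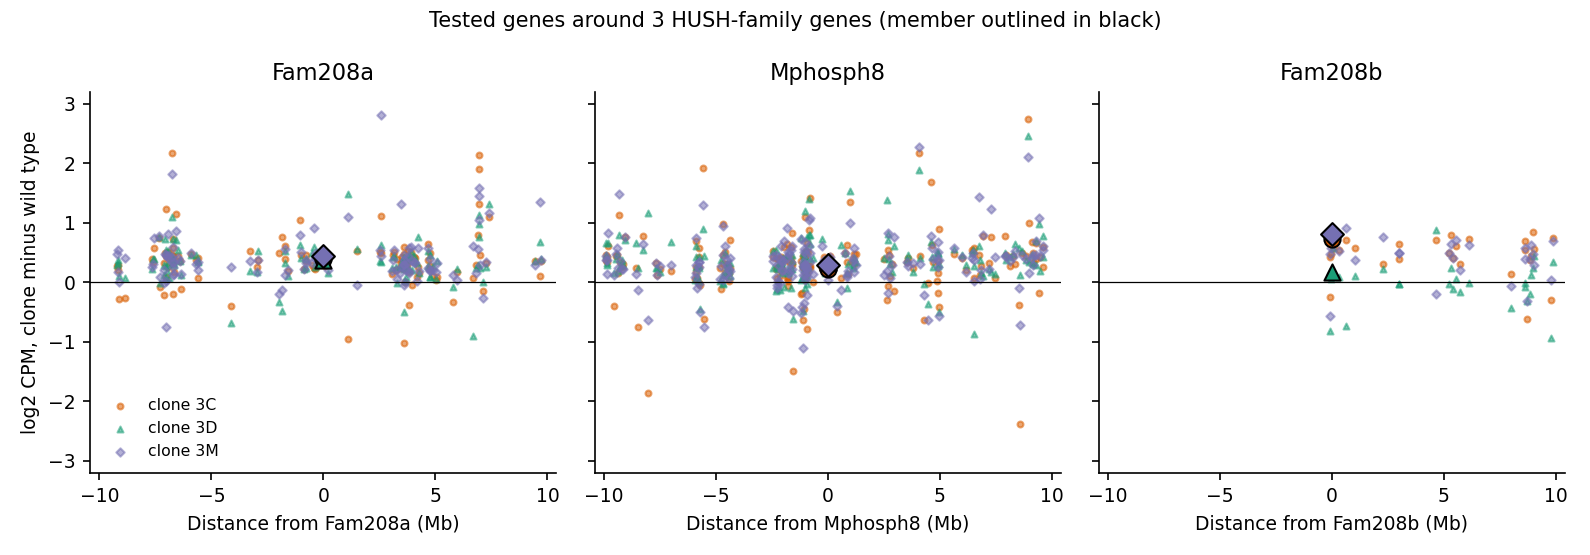
Difference in log2 CPM between each rescue clone and wild type for genes tested within 10 Mb of Fam208a, Mphosph8 and Fam208b, against the distance in Mb between start coordinates (circles 3C, triangles 3D, diamonds 3M; the member is outlined in black). Points lie mostly above 0 around Fam208a and Mphosph8 in all clones, while around Fam208b most, though not all, of those of clone 3D lie below those of 3C and 3M.

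Smchd1 (chr17:71344489-71475343), the SMC-related silencer, read 157.5 CPM in wild type and 153.8, 156.8 and 158.8 CPM in the clones. Wild type lay within the range of the clones, which had the lowest spread of any member, a coefficient of variation of 1.59%. The fitted difference was -0.01 (SE 0.067, 95% interval -0.18 to 0.16). Of imprinted genes that Smchd1 may act on, 4 of the Snrpn cluster were listed, with a median difference of -0.03. Of these, 1 lay above wild type in every clone and 1 below, against 28.7% and 28.4% of all genes. The 2 with the largest differences follow. Magel2 and Ndn, imprinted genes of the Snrpn cluster, had 13 counts of Magel2 in wild type against 1, 2 and 2 in the clones (unadjusted p = 0.00455, adjusted p = 0.247, edgeR quasi-likelihood test), and 1.84 CPM of Ndn against 2.15, 2.27 and 3.61.

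Hells, which helps to place DNA methylation on repeats (chr19:38930915-38971051), read 417.2 CPM in wild type and 422.9, 389.8 and 413.7 CPM in the clones. Clone 3C lay above wild type and the others below. In the fit Hells differed by -0.03 (SE 0.070, interval -0.20 to 0.14). Smarcad1, a remodeller that acts on heterochromatin behind replication forks (chr6:65042583-65116061), read 238.0 CPM in wild type and 256.4, 242.9 and 238.8 CPM in the clones. Clones 3D and 3M were close to wild type, with 3C above both. Its fitted difference was 0.05 (SE 0.071, interval -0.13 to 0.22).

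Chaf1a, the large subunit of CAF-1, which loads H3 and H4 onto newly replicated DNA (chr17:56040439-56072289), read 125.3 CPM in wild type and 133.0, 127.6 and 132.9 CPM in the clones. Its partner Chaf1b (chr16:93883901-93906115) read 67.4 CPM in wild type and 62.5, 65.4 and 60.7 CPM. Chaf1a lay above wild type in every clone and Chaf1b below it in every clone, by amounts within the error of the fit. The fitted differences were 0.07 (SE 0.072, interval -0.11 to 0.24) and -0.10 (SE 0.087, interval -0.32 to 0.11). In RefSeq, Chaf1b starts 7822 bp after the end of Morc3 on chromosome 16, the locus edited in the parental clone. The 19 genes tested within 2 Mb of Chaf1b had a median of -0.02 in clone 3C, 0.27 in 3D and 0.10 in 3M.

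Rif1 (chr2:52072832-52122383) had the most counts of the members, with 763.6 CPM in wild type and 791.4, 747.0 and 792.5 CPM in the clones. Clone 3D lay below wild type and the others lay above it. In the fit Rif1 differed by 0.02 (SE 0.063, interval -0.13 to 0.18), over 10669 to 14564 counts. For the 7 members outside chromosomes 13 and 14 the adjusted p ran from 0.719 to 0.980 (edgeR quasi-likelihood test). Their intervals, except those of Pphln1 and Chaf1b, lay within 0.25 of 0 on the log2 scale.

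**Figure D4:**
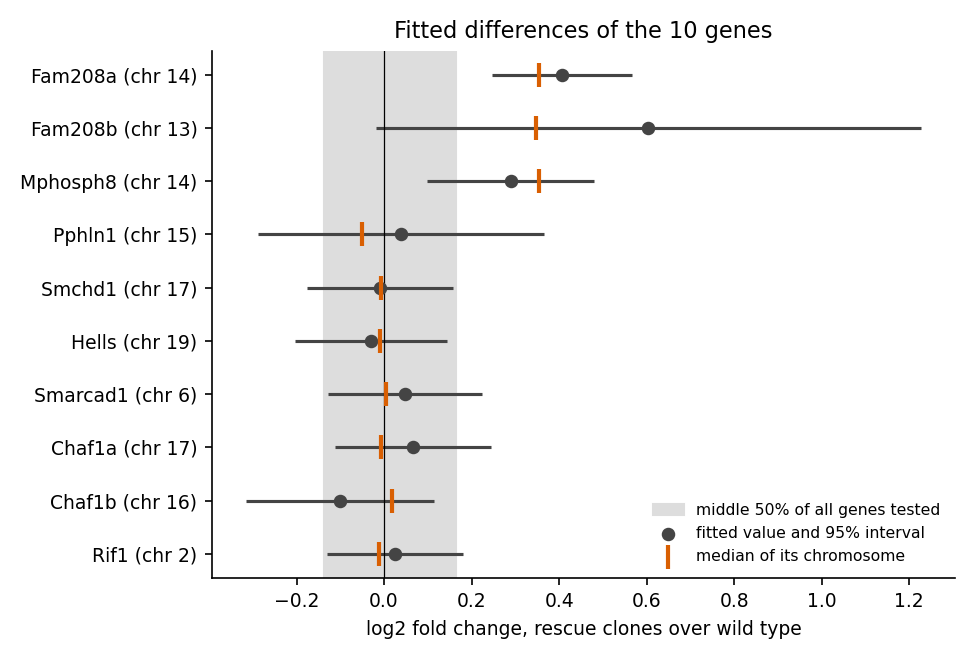
Fitted log2 fold change of each gene, rescue clones over wild type, with its 95% interval (edgeR), the median of its chromosome (orange mark) and the middle 50% of all genes tested (grey band, -0.14 to 0.16). The intervals of Fam208a and Mphosph8 exclude 0, and those of the other 8 genes include it.

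Across the members, 0 of 10 were called at an adjusted p of 0.01, where 1 of 13267 genes tested was, 0.00754% (edgeR quasi-likelihood test, and 0 members of 65 calls with DESeq2). At an unadjusted p under 0.05 there were 2 members, Fam208a and Mphosph8, against 10.3% of all genes, 49.2% of those on chromosome 14 and 8.67% of those outside chromosomes 13 and 14. Above wild type in every clone were 5 members (Fam208a, Fam208b, Mphosph8, Smarcad1 and Chaf1a), against 28.7% of all genes. For Fam208a and Mphosph8 the share on their own chromosome 14 was 78.5%, and for Fam208b on chromosome 13 it was 51.4%. Below wild type in every clone was 1 member, Chaf1b, against 28.4% of all genes, and the other 4 lay on both sides. The median difference of the members was 0.04 and that of all genes 0.01, and without the genes of chromosomes 13 and 14 the members' median was 0.02. In all but Fam208b and Pphln1 the clones varied less than the median gene. The members' median level in wild type was 168 CPM, and their spread was not compared with that of genes of similar level.

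Compared per kb of transcript (the GENCODE vM21 transcript with the longest coding sequence), the wild-type order was Rif1 with 89.7 CPM per kb, Hells with 71.1, Smarcad1 with 46.1, Mphosph8 with 42.7, Chaf1b with 35.1, Fam208a with 34.1, Chaf1a with 22.6, Smchd1 with 22.3, Fam208b with 21.4 and Pphln1 with 13.3. In the clones Rif1 (91.3 ± 3.05 CPM per kb, SD, n = 3) and Hells (69.7 ± 2.91) again led, and Pphln1 (13.7 ± 1.37) again came last. Mphosph8 then stood above Smarcad1, with 52.2 ± 1.95 against 47.6 ± 1.78 CPM per kb, and Fam208a came next with 45.2 ± 1.10. The clone ranges of Smarcad1 and Fam208a overlapped. Chaf1b (32.7 ± 1.21) could not be separated from Fam208b (32.5 ± 7.32), whose spread was wide. Chaf1a (23.7 ± 0.556) and Smchd1 (22.2 ± 0.352) followed, with ranges that did not overlap. Taken over all annotated exons instead, Smchd1 read 7.88 CPM per kb in wild type, below Pphln1 with 10.5, so the order, its last place included, depends on the length used.

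The partners of the members were read from lists, and no gene of any list was called (edgeR quasi-likelihood test, adjusted p of 0.01). Among 9 cofactors of HUSH and readers of H3K9 methylation, the median was -0.08, and 1 gene passed an unadjusted p of 0.05, where 10.3% of all genes did. That gene was Morc2a, the ATPase that acts with HUSH, with 191.5 CPM in wild type and 165.2, 171.9 and 162.8 CPM in the clones, a log2 difference of -0.20 (SE 0.069). 2810474O19Rik (Resf1), a Setdb1-binding protein and the next largest of the list, differed by -0.13. Of the 9 genes, 5 were below wild type in every clone and 1 was above, against 28.4% and 28.7% of all genes.

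Among the partners of Hells in DNA methylation, Dnmt3a and Dnmt3b had the largest fitted differences. Of 7 genes, 3 passed an unadjusted p of 0.05, against 10.3% of all genes, and these 3 read lower in the clones. Dnmt3a, a de novo DNA methyltransferase, read 166.7 CPM in wild type and 78.3, 63.3 and 62.4 CPM in the clones, a log2 difference of -1.30 (SE 0.13). Every clone lay far below wild type. Its adjusted p was 0.108 by the edgeR quasi-likelihood test, and it was called by DESeq2 (adjusted p 1.3e-09) and by edgeR without clone 3D (adjusted p 4.7e-05). Dnmt3b, its relative, read 232.2 CPM in wild type and 195.7, 139.9 and 180.3 CPM in the clones (-0.43, SE 0.18). It was not one of the 3 genes, which were Dnmt3a, Cdca7 (-0.17) and Cdca7l (-0.29). Dnmt1 (0.14), Uhrf1 (0.10) and Zbtb24 (0.07) read above wild type in every clone. Hells itself lay within 0.10 of wild type in each clone.

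Among 22 other SNF2-family remodellers the median was -0.01, with 2 genes up and 2 down at an unadjusted p of 0.05, against 10.3% of all genes passing it in either direction. Smarca1, an ISWI ATPase, read 34.6 CPM in wild type and 19.1, 25.6 and 21.8 CPM in the clones (-0.64, SE 0.17, adjusted p = 0.316, edgeR quasi-likelihood test). Smarca2, a BAF ATPase, was near the limit of the filter, from 0.419 to 1.17 CPM. Leaving out clone 3D called Smarca1 and Atrx, a heterochromatin remodeller of the X chromosome (0.39). That fit called many more genes over the whole set. With all clones Atrx differed by 0.38 (SE 0.059) and was not called. Clones 3C, 3D and 3M exceeded wild type by 0.39, 0.36 and 0.39 in log2 CPM, so clone 3D did not stand apart for Atrx. The 7 partners of CAF-1 had a median of 0.01, with Rbbp4, the histone-binding subunit, at -0.17 (SE 0.066) and its paralog Rbbp7 at -0.15 (SE 0.084). The 6 partners of Smchd1 and Rif1 had a median of 0.02, the largest differences being those of Lrif1 (0.22, SE 0.15) and the phosphatase subunit Ppp1cc (0.11, SE 0.11).

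**Figure D5:**
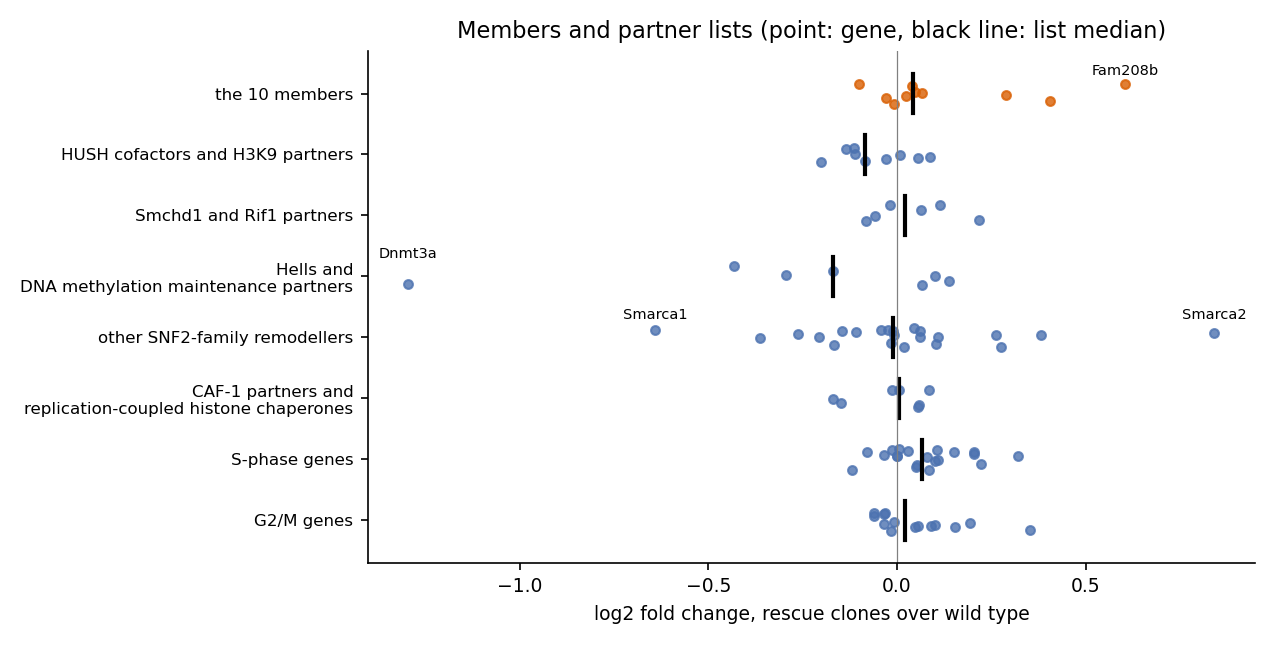
Fitted log2 fold change, rescue clones over wild type, of the 10 members (orange) and of the genes of 7 partner and cell cycle lists (blue), with a black line at each list's median. The members' median is 0.04, and the list medians run from -0.17 for the Hells partners to 0.07 for S-phase genes.

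Since CAF-1, Hells and Rif1 act in replicating cells, cell cycle genes were read beside them. The 20 S-phase genes had a median of 0.07, and 3 passed an unadjusted p of 0.05, against 10.3% of all genes. Ccne2 (0.32, SE 0.11) and Cdt1 (0.22, SE 0.081) had the largest differences of the list. The 14 G2/M genes had a median of 0.02, and Cenpe (0.19, SE 0.074) had the next largest difference after Ccnb1. Ccnb1, on chromosome 13, read 201.0 CPM in wild type and 286.9, 207.1 and 276.6 CPM in the clones. As for Fam208b, clone 3D lay nearest to wild type, and Ccnb1 was called without that clone (0.49, adjusted p 0.0017, edgeR quasi-likelihood test). Genes of the 2-cell-like state, in which retroelements are active, were at or near 0, with 0 counts over 15 genes in wild type and 5, 0 and 1 counts in clones 3C, 3D and 3M. Of these genes, 12 were at 0 in every library. Multimapping read pairs enter no gene count, so transcripts of genes with near-identical copies can go uncounted. Absence of the state was not tested.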

How the data were processed

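The authors sequenced rRNA-depleted, directional libraries as read pairs, aligned them with STAR to mm10 and deposited raw counts of read pairs per gene, unstranded and for each strand. For the gene annotation, nothing is given in the sources used here. The reverse-strand counts were used, and entries that name no gene (unmapped, multimapping, without feature, ambiguous) stayed out of library sizes. Multimapping read pairs were 7.85% to 8.21% of all and those without feature 23.6% to 24.7%. The test was edgeR 4.0.16's quasi-likelihood test (R 4.3.3; filterByExpr, TMM, no legacy option) over all genes, at the study's adjusted p of 0.01, with DESeq2 1.42.0 and limma-voom (limma 3.58.1) as alternatives. The standard error was the size of the log2 fold change over the square root of F. Differences of log2 CPM used a prior count of 2. Chromosomes, neighbours and promoters came from RefSeq GRCm38.p6, where 22542 symbols matched directly, 1352 by synonym and 160 not at all, and lengths and the gene spans printed from GENCODE vM21 (GRCm38). The chi-square per gene was 6.59 to 9.92 between clones and 11.6 to 15.1 between wild type and a clone, so no library was a copy of another. The steps were tested on simulated counts. All 10 members are named, with Morc3 and any called gene of a list. Named too are the 2 largest differences of each list of partners, cell cycle genes and imprinted genes. Atrx was named for its call without clone 3D, and the other partners of Hells to complete their list. Markers were read as list sums, with Thy1, Col3a1, Lum and Tfap2c named for their levels. The members and lists were chosen with earlier results of these data known.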

Additional observations from a re-analysis of the deposited data

Results flagged for a closer look

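Counts on the strand opposite to Morc3, which enter no comparison but the alternative on unstranded counts, stood at 7 in wild type and at 1963, 2001 and 2266 in clones 3C, 3D and 3M, beside 3065 wild-type counts on its own strand and 8830, 7225 and 9437 clone counts. The source of these counts was not tested.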

How the results depend on the processing

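Of 303 values recomputed under 13 alternatives, 292 kept their side of the threshold or stayed within the limits set. A change of sign in an uncalled difference near 0 was not counted against a value. The number of genes called, 1 over all genes, was 0 with at least 10 counts in every library, with limma-voom and with edgeR's legacy method (added after the data were seen), and 65 with DESeq2, and it ran from 0 to 420 when a clone was left out, with 420 without clone 3D. Members called ran from 0 to 2 with a clone left out, 2 (Fam208a and Fam208b) without clone 3D, and were 0 under the other alternatives. Partner genes called numbered 1 with DESeq2 and 0 to 4 with a clone left out. The cause of these shifts was not tested. The median of the members stayed between 0.01 and 0.07. Uncalled differences near 0 changed sign for Hells, Pphln1 and Smchd1. Scalings moved the median of all genes by at most 0.014. No paired analysis was possible because the groups have only replicate number 1 in common. The single wild-type library is assumed to vary as the clones do, and a clone history and the effect of the construct cannot be told apart.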
